A study of Homo sapiens with 12 samples.

Results

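The tripartite motif (TRIM) genes encode a family of RING-type ubiquitin ligases, and they were taken here as every measured gene whose current symbol is TRIM followed by a number. The rule gave 50 of the 14029 genes in the deposited table. The cells were ES-2, an established line of human ovarian cancer, and their RNA was sequenced after poly(A) selection. The groups compared were 3 libraries labelled SRMS shRNA, from cells carrying a short hairpin RNA against the non-receptor tyrosine kinase SRMS, and 3 libraries from cells carrying the control vector. Both groups had received 15 µM cisplatin, a platinum drug that crosslinks DNA, for 8 hours, so no response to cisplatin itself was measured, and the 6 libraries of the PBS arms are not analysed here. The labels name 1 hairpin construct without its sequence, and do not say whether the replicates are separate cultures. The p-values therefore cover only the spread among these libraries, which may be technical.

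A TRIM protein carries, from its amino end, a RING domain that recruits the ubiquitin-loaded E2 enzyme, 1 or more B-box zinc fingers and a coiled coil through which it dimerises. What follows the coiled coil sets the class and usually binds the substrate, most often a PRY-SPRY domain, and in smaller classes NHL repeats, a PHD finger with a bromodomain, or a COS box that binds microtubules. Members act in innate immune sensing, restriction of retroviruses, transcriptional repression, control of p53, and muscle and neuronal biology.

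The values are reads scaled by each library's effective size to 1000000 reads, called signal below. Recovered reads in the table came to 28009232, 38072051 and 32577706 in replicates 1, 2 and 3 labelled SRMS shRNA, against 29072793, 45323697 and 56855428 in the vector replicates. SRMS had 9, 39 and 27 reads in the libraries labelled SRMS shRNA and 2, 14 and 47 reads in the vector libraries, a signal of 0.755 ± 0.384 and 0.397 ± 0.384 (SD, n = 3 each), so the targeted transcript was not measured lower (limma log2 fold change 0.52, SE 0.30, adjusted p = 0.168; exact two-sided permutation p = 0.2, where 0.1 is the smallest possible). Left out, SRMS shRNA replicate 1 or vector replicate 3 moved SRMS past the threshold as higher, with log2 fold changes of 0.79 (adjusted p = 0.0245) and 0.84 (adjusted p = 0.0281), and so did pairing by replicate number (adjusted p = 0.00782). For this reason the direction of every comparison below rests on the label alone. Of 11 ovarian carcinoma markers 7 were measured, with summed signal of 7652 to 8553 in libraries labelled SRMS shRNA and 6651 to 7263 in vector libraries, mostly from VIM, KRT18 and KRT7, while PAX8 was near 0 in both groups (0.241 and 0.136). Leukocyte markers (4 of 7 measured, nearly all CD68) summed to 60.6 to 65.1 in libraries labelled SRMS shRNA and 49.5 to 52.2 in vector libraries, and endothelial markers (3 of 5, mostly CDH5) to 5.88 to 8.36 with SRMS shRNA and 14.8 to 16.8 with the vector. Fibroblast markers (4 of 6, mostly COL1A1) summed to 821 to 827 with SRMS shRNA and 1246 to 1250 with the vector. Among them PDGFRA averaged 7.81 and 10.0, while COL1A2 (0.0671 and 0.147) and COL3A1 (0 and 0.0364) were near 0 in both groups. Erythroid markers (2 of 8) summed to 0.220 to 0.511 with SRMS shRNA and 0.0335 to 0.227 with the vector. The leukocyte, endothelial and fibroblast sums each rest mostly on the gene named, so they do not show that such cells were present in this line. The part of these marker differences in the results below was not tested, and in bulk RNA fewer cells of a type and less RNA per cell cannot be told apart.

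Most TRIM genes that differed were lower in the libraries labelled SRMS shRNA, though not when columns are set to a common median. That scaling gives 12 lower and 15 higher, where 17.9% of all genes were lower and 44.6% higher. In the main fit, without that scaling, 32 of the 50 genes passed the threshold (limma, Benjamini-Hochberg adjusted p under 0.05 over all 14029 genes), 23 of them lower and 9 higher, while 18 did not pass. Over all genes tested 56.8% passed, 30.2% as lower and 26.6% as higher, so the TRIM share of 64.0% was near the background in total, and the split by direction was 46.0% lower and 18.0% higher. The 2 groups did not overlap for 31 TRIM genes, with 23 below and 8 above the vector libraries, against 62.7% of all genes (32.9% below and 29.7% above). The median log2 fold change was -0.15 over the TRIM genes and 0.00 over all genes.

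Sizes were mostly small. A change of at least 0.5 on the log2 scale, together with the adjusted p, was met by 11 TRIM genes, 6 lower and 5 higher, and by 17.1% of all genes (10.0% lower and 7.05% higher). The lower ones were TRIM58, TRIM33, TRIM37, TRIM24, TRIM32 and TRIM68, and the higher ones TRIM73, TRIM54, TRIM74, TRIM69 and TRIM72. For the higher ones the SRMS shRNA to vector ratios of means were 2.23 (TRIM73), 5.38 (TRIM54), 2.20 (TRIM74), 2.64 (TRIM69) and 2.60 (TRIM72). Their order differs from that by log2 fold change, where the added 0.5 understates changes of low genes. All of these higher genes had a mean signal under 2. Among the 11 TRIM genes under that level 5 were called, each higher, whereas among the 39 at or above it 4 were higher and 23 lower, with median log2 fold changes of 0.23 and -0.17. All genes were not split at that level. A filter on low means, with a different cut, kept 11353 of all genes. It took their higher calls from 3736 to 3113 and their lower calls from 4233 to 4100. Most calls lost were thus higher ones over all genes too, and the split is not shown to be particular to TRIM genes. Directions depend on the scaling: with the common median all genes shift by 0.16 on the log2 scale and 17.9% of them are lower and 44.6% higher, a shift common to all genes that leaves the gap between the medians as it was. Quantile scaling, which is not such a shift, cut the gap to 0.07, with the TRIM median below that of all genes. With libraries paired by replicate number, 25 TRIM genes were lower and 9 higher, and 65.3% of all genes passed (34.3% lower and 31.0% higher).

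**Figure D1:**
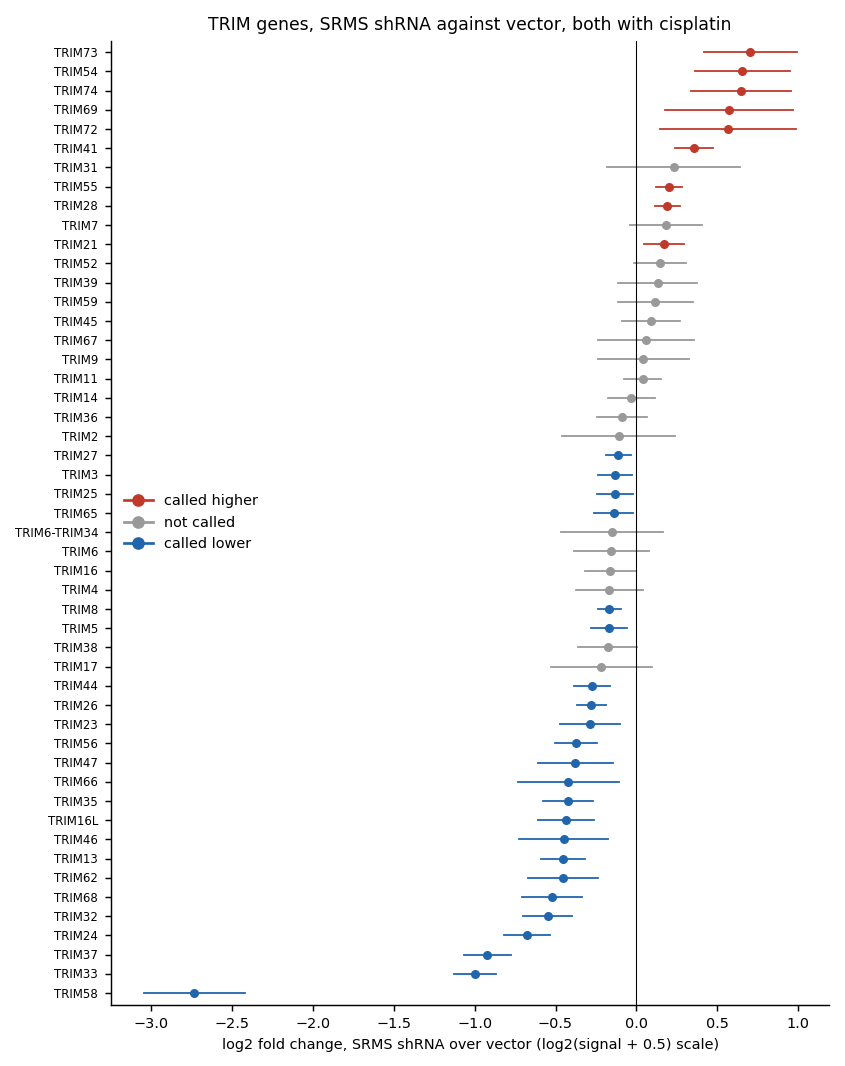
Log2 fold change of each of the 50 TRIM genes, SRMS shRNA over vector, with its 95% confidence interval from limma (3 libraries a group). TRIM58 stands at -2.73, the next gene, TRIM33, at -1.0, and the highest, TRIM73, at 0.71.

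TRIM58, a PRY-SPRY ligase known from erythroid cells, where it degrades dynein during the loss of the nucleus, had the lowest value of the family. Its signal was 0.511, 0.247 and 0.224 in the libraries labelled SRMS shRNA, against 4.78, 5.22 and 4.83 in the vector libraries, from 14, 9 and 7 reads against 143, 239 and 277 reads. Every library labelled SRMS shRNA was far below every vector library. The means were 0.327 ± 0.159 and 4.94 ± 0.239 (SD, n = 3 each), so the SRMS shRNA mean was 6.62% of the vector mean. The log2 fold change was -2.73 (SE 0.14, 95% confidence interval -3.05 to -2.42, limma adjusted p = 3.76e-07), and the exact two-sided permutation p over the 6 libraries was 0.1, the smallest that 3 against 3 allows. On the linear scale the vector to SRMS shRNA ratio of means was 15.1, and single pairs of libraries gave ratios of 9.37 to 23.3. TRIM58 ranked 2 from the bottom of 14029 genes by log2 fold change. The gene lies at chr1:247857199-247878205 on the plus strand of GRCh38 and has the identifier ENSG00000162722.

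Of 8 markers of erythroid cells only KLF1 and ALAS2 were measured, both near 0, and neither passed the threshold. Neighbours of TRIM58 on chromosome 1 were also read at low levels. OR2W3, an olfactory receptor gene that starts 17382 bases downstream on the same strand, had 3, 2 and 0 reads in libraries labelled SRMS shRNA and 17, 34 and 27 reads in vector libraries, a signal of 0.0548 ± 0.0547 and 0.594 ± 0.138 (SD, n = 3 each) and fell by 0.98 on the log2 scale (limma adjusted p = 0.000209). Each library labelled SRMS shRNA was below each vector library. The added 0.5 is larger than the SRMS shRNA mean of OR2W3 and close to its vector mean, so 0.98 understates the fall. The value therefore does not show that OR2W3 fell less than TRIM58, and with so few reads the 2 falls were not compared. OR6F1, 140553 bases away, had 0 reads in all 3 libraries labelled SRMS shRNA and 8, 1 and 9 reads in the vector libraries and did not pass (adjusted p = 0.0708), nor did GCSAML (-0.31, adjusted p = 0.141) or OR2B11 (0.46, adjusted p = 0.0719).

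None of 6 relatives of TRIM58 changed by as much. They are PRY-SPRY genes set by family knowledge, TRIM7, TRIM11, TRIM17, TRIM27, TRIM39 and TRIM41, and their coding sequences were 63.2% to 67.3% identical to the 1461 bases of TRIM58 over aligned positions. TRIM41, which ubiquitinates nucleoproteins of viruses, was higher at 156, 144 and 137 in the libraries labelled SRMS shRNA against 120, 110 and 111 in the vector libraries (log2 fold change 0.36, SE 0.05, limma adjusted p = 0.000238). Its groups did not overlap. TRIM27, which acts with MAGE proteins on endosomal sorting, was at 138, 138 and 138 against 146, 154 and 148 (-0.11, SE 0.03, adjusted p = 0.0181). That call is weak: it holds in 2 of the 6 fits that leave out 1 library, misses at adjusted p of 0.0521 to 0.0969 without vector replicate 2 or 3 or SRMS shRNA replicate 2 or 3, and turns to 0.049 under median scaling.

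The other 4 relatives did not pass. TRIM11, linked to degradation of misfolded proteins, averaged 51.6 ± 2.64 in libraries labelled SRMS shRNA and 50.2 ± 1.90 in vector libraries (SD, n = 3 each; adjusted p = 0.550). TRIM7, which binds glycogenin, averaged 9.30 ± 0.532 and 8.16 ± 1.06 (0.19, adjusted p = 0.138), and TRIM39, a regulator of the anaphase-promoting complex, 3.91 ± 0.526 and 3.51 ± 0.159 (0.13, adjusted p = 0.332). TRIM17, a neuronal ligase, was the only relative as scarce as TRIM58 became, with 8, 14 and 6 reads in libraries labelled SRMS shRNA and 10, 18 and 30 reads in vector libraries (-0.22, adjusted p = 0.212). The log2 fold changes of the 6 relatives ran between -0.22 and 0.36 with a median of 0.09, 1 lower and 1 higher, against -2.73 for TRIM58.

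**Figure D2:**
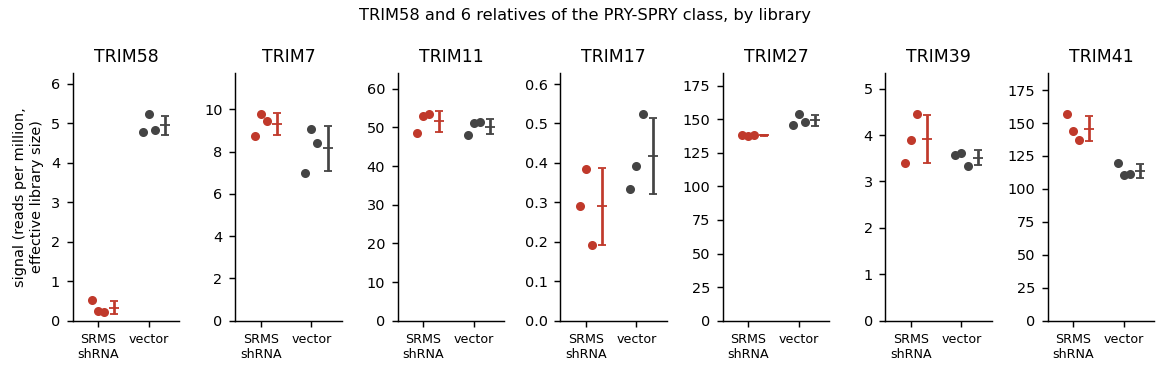
Signal of TRIM58 and its 6 relatives in each library (points; left SRMS shRNA, right vector), with the mean and SD of each group beside them and a separate axis from 0 for each gene. The TRIM58 points of the libraries labelled SRMS shRNA lie at 0.224 to 0.511 and those of the vector libraries at 4.78 to 5.22, while TRIM41 is the only relative with every point above the vector libraries.

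Besides TRIM58 the PRY-SPRY class held 20 genes, of which 9 were lower and 4 higher, with a median log2 fold change of -0.15, that of the whole family. The 65% called is set against 56.8% of all genes (30.2% lower and 26.6% higher). TRIM68, a cofactor of the androgen receptor, was at 13.9, 11.5 and 13.2 in libraries labelled SRMS shRNA against 20.1, 17.6 and 18.4 in vector libraries (log2 fold change -0.52, SE 0.08, limma adjusted p = 0.000388). The groups were separate. TRIM62 averaged 4.54 ± 0.363 and 6.39 ± 0.525 (-0.45, adjusted p = 0.00274), and TRIM35, an interferon and metabolism regulator, 9.69 ± 0.0856 and 13.2 ± 0.714 (-0.42, adjusted p = 0.000529; SD, n = 3 each). TRIM47 fell by 0.38 on the log2 scale (adjusted p = 0.0104), a call that median scaling ends (-0.22, adjusted p = 0.0885).

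Of 11 TRIM genes known from antiviral defence 9 were measured, 5 lower and 1 higher, with -0.15 as the median log2 fold change. The 66.7% called is set against 56.8% of all genes, and the count of lower genes moved by over 1.5 times in 12 of 20 alternatives. TRIM26, a regulator of interferon-beta induction, was the one with the highest level among those that fell, averaging 67.3 ± 2.54 in libraries labelled SRMS shRNA and 81.8 ± 0.717 in vector libraries (SD, n = 3 each; -0.28, limma adjusted p = 0.000209). TRIM56, which acts in sensing of foreign nucleic acid, averaged 13.5 ± 0.278 and 17.6 ± 0.389 (-0.37, adjusted p = 0.000404). TRIM5, the retroviral capsid restriction factor, averaged 35.3 ± 1.54 and 39.7 ± 1.15 (-0.17, adjusted p = 0.0143). TRIM5 loses the call without vector replicate 2 or SRMS shRNA replicate 2 (adjusted p = 0.0668 and 0.0603) and under median scaling (-0.01).

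TRIM25, the ligase that ubiquitinates the RNA sensor RIG-I, averaged 43.5 ± 2.30 in libraries labelled SRMS shRNA and 47.8 ± 1.37 in vector libraries (SD, n = 3 each; -0.13, limma adjusted p = 0.0425). TRIM65, which activates the RNA sensor MDA5, averaged 24.6 ± 1.07 and 27.2 ± 0.795 (-0.14, adjusted p = 0.0466). Both sit at the edge of the test: each passes in only 1 of the 6 fits that leave out 1 library. TRIM25 passes only without SRMS shRNA replicate 1 and otherwise has adjusted p of 0.0664 to 0.167, and TRIM65 passes only without SRMS shRNA replicate 2 and otherwise has 0.0648 to 0.154. Both turn above 0 under median scaling, at 0.026 and 0.019.

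TRIM21, the cytosolic antibody receptor, was the one antiviral gene that rose, averaging 33.8 ± 1.16 in libraries labelled SRMS shRNA and 30.0 ± 1.57 in vector libraries (SD, n = 3 each; 0.17, limma adjusted p = 0.0224). It misses the threshold without vector replicate 2 (adjusted p = 0.105) or SRMS shRNA replicate 2 (adjusted p = 0.0700). The pathway that these ligases feed moved in both directions. Of 12 genes of RNA sensing around TRIM25, 6 were lower and 3 higher, with a median of -0.21 (all genes 30.2% lower and 26.6% higher). The sensor gene RIGI averaged 12.1 ± 0.708 and 21.0 ± 0.446 (-0.77, adjusted p = 5.97e-06), and TBK1, the kinase downstream of it, 28.1 ± 0.840 and 47.8 ± 1.61 (-0.75, adjusted p = 1.28e-06). In the other direction IRF3, the transcription factor that TBK1 phosphorylates, averaged 146 ± 2.26 and 99.6 ± 0.598 (0.55, adjusted p = 9.4e-07), and DHX58, a relative of RIGI, 2.16 ± 0.481 and 0.593 ± 0.0905 (1.27, adjusted p = 4.3e-05).

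All 4 genes of the PHD-bromodomain class, the chromatin-reading TIF1 proteins, passed the threshold, 3 lower and 1 higher, against 56.8% of all genes. TRIM33, which monoubiquitinates SMAD4 and limits TGF-beta signalling, was at 12.8, 12.3 and 13 in the libraries labelled SRMS shRNA, against 26.6, 26.2 and 25.1 in the vector libraries. The groups were far apart, with means of 12.7 ± 0.391 and 25.9 ± 0.788 (SD, n = 3 each; log2 fold change -1.0, SE 0.06, limma adjusted p = 8.16e-07). TRIM24, a nuclear receptor coregulator and ligase for p53, was at 19.3, 18.5 and 16.6 against 28.8, 29.5 and 29.5 (-0.68, SE 0.06, adjusted p = 1.35e-05). TRIM66, a testis-enriched member, was at 4.01, 3.49 and 3.74 against 6.42, 5.24 and 4.11. Its change of -0.42 (adjusted p = 0.0252) rests on single libraries, as it misses the threshold without vector replicate 1 (-0.28, adjusted p = 0.0943) or 2 (adjusted p = 0.0658) or SRMS shRNA replicate 2 (adjusted p = 0.0833) or 3 (adjusted p = 0.0603).

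TRIM28 (KAP1), the corepressor of KRAB zinc finger proteins, had the highest level of the family and moved the other way. Its signal was 1366, 1446 and 1442 in libraries labelled SRMS shRNA and 1231, 1251 and 1246 in vector libraries (0.19, SE 0.03, limma adjusted p = 0.000935). The groups did not overlap, but under quantile scaling, which sets the distributions of all libraries equal, the value was -0.042 (adjusted p = 0.283), so its direction depends on the scaling. Of 8 partners in the corepressor complex 2 were lower and 3 higher, against 30.2% and 26.6% of all genes. With pairing by number CBX5, a heterochromatin protein, also passed as lower (-0.11, adjusted p = 0.0280). When the dependence on transcript length and GC content was also taken out, CBX5 passed as higher instead (0.17, adjusted p = 0.000478). Median scaling put it at 0.05 (adjusted p = 0.424), so its direction depends on the setting. ATF7IP, which stabilises the histone methyltransferase SETDB1, averaged 22.1 ± 2.30 and 33.9 ± 2.22 (SD, n = 3 each; -0.61, adjusted p = 9.93e-05), SETDB1 itself changed by -0.30 (adjusted p = 0.00286; -0.14 and adjusted p = 0.0808 under median scaling), and the deacetylase HDAC2 rose by 0.16.

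TRIM37, the MATH-domain ligase that restrains centrosome assembly and is mutated in Mulibrey nanism, had the third-lowest log2 fold change of the family. It was at 22.1, 18.9 and 21.6 in libraries labelled SRMS shRNA, against 38.4, 40.4 and 41.1 in vector libraries, with means of 20.9 ± 1.72 and 40.0 ± 1.40 (SD, n = 3 each; -0.92, SE 0.07, limma adjusted p = 2.15e-06). Every library of the one group was below every library of the other. TRIM23, which has an ARF GTPase domain, averaged 13.1 ± 0.694 and 16.1 ± 1.71 (-0.29, adjusted p = 0.0135). It falls short without vector replicate 1 (-0.21, adjusted p = 0.0518) or SRMS shRNA replicate 3 (adjusted p = 0.0528), and under median scaling (-0.13, adjusted p = 0.193).

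Of the 4 NHL or filamin genes 2 were lower and the others did not pass, where 30.2% of all genes were lower and 26.6% higher. TRIM32, mutated in a limb-girdle muscular dystrophy, was at 13.1, 11.4 and 12.1 in libraries labelled SRMS shRNA, against 18.3, 17.9 and 18.0 in vector libraries (-0.55, SE 0.07, limma adjusted p = 8.27e-05), with no overlap. TRIM3, a relative of a fly tumour suppressor, averaged 27.8 ± 0.623 and 30.5 ± 0.357 (SD, n = 3 each; -0.13, adjusted p = 0.0340), and passed in only 1 of the 6 fits that leave out 1 library, the one without SRMS shRNA replicate 3, with adjusted p of 0.0606 to 0.0922 in the others and a value of 0.027 under median scaling. TRIM2 and TRIM45 did not pass. Of the 2 transmembrane genes TRIM13, a ligase of the endoplasmic reticulum, averaged 17.5 ± 1.06 and 24.1 ± 0.694 (-0.45, adjusted p = 0.000146), and TRIM59 did not pass (0.12, adjusted p = 0.365).

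Among the 4 members that lack a RING domain, 2 were lower, against 30.2% of all genes. TRIM16L averaged 8.22 ± 0.183 in libraries labelled SRMS shRNA and 11.3 ± 0.870 in vector libraries (SD, n = 3 each; -0.44, limma adjusted p = 0.000867). Its coding sequence matched that of TRIM16 at 98.7% of aligned bases, so reads may have been split between them, and TRIM16 itself did not pass (-0.16, adjusted p = 0.0752) except without SRMS shRNA replicate 2 (-0.21, adjusted p = 0.0461) and with pairing by number (adjusted p = 0.0352). TRIM44, which has a ubiquitin-binding zinc finger in place of the RING, averaged 47.2 ± 2.0 and 57.2 ± 2.50 (-0.28, adjusted p = 0.000842). That value went to -0.12 (adjusted p = 0.0540) under median scaling. TRIM14, an adaptor in antiviral signalling, averaged 22.2 ± 1.59 and 22.7 ± 0.895 (-0.03, adjusted p = 0.697).

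The muscle-type COS-box genes were both higher, as were 26.6% of all genes. TRIM55 (MuRF2), which binds microtubules and titin in striated muscle, was at 131, 125 and 129 in libraries labelled SRMS shRNA and 110, 114 and 111 in vector libraries (0.20, SE 0.04, limma adjusted p = 0.000777). The groups did not overlap. TRIM54 (MuRF3) had 14, 11 and 13 reads against 2, 5 and 3 reads, a signal of 0.410 ± 0.104 and 0.0761 ± 0.0295 (SD, n = 3 each; 0.65, SE 0.13, adjusted p = 0.00179). Of the 4 neuronal COS-FN3-SPRY genes only TRIM46, which organises microtubules at the start of the axon, passed, at 2.66 ± 0.421 and 3.80 ± 0.351 (-0.45, adjusted p = 0.0105; -0.29 and adjusted p = 0.0638 under median scaling). TRIM9, TRIM36 and TRIM67 did not, and TRIM67 had 0 to 4 reads in every library.

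TRIM73 and TRIM74, short copies of one gene on chromosome 7 with 99.7% identical coding sequences, rose together but cannot be measured apart. TRIM73 had 27, 48 and 39 reads in libraries labelled SRMS shRNA against 17, 27 and 25 reads in vector libraries (signal 1.18 ± 0.176 and 0.531 ± 0.0834, SD, n = 3 each; 0.71, limma adjusted p = 0.00096). TRIM74 had 25, 32 and 32 reads against 8, 24 and 28 reads (signal 0.938 ± 0.0752 and 0.427 ± 0.139; 0.64, adjusted p = 0.00267). In the same class of members with no further C-terminal domain, TRIM8, a modulator of cytokine signalling, averaged 134 ± 1.06 and 151 ± 1.03 (-0.17, adjusted p = 0.00118), which median scaling took to -0.01. TRIM52 had all 3 libraries labelled SRMS shRNA above the vector libraries but did not pass (0.14, adjusted p = 0.110), and TRIM31 rested on 9, 2 and 0 reads against 0, 0 and 4.

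A pair of scarce PRY-SPRY genes was higher with less certainty. TRIM72 (MG53), a muscle protein of membrane repair, had 22, 28 and 9 reads in libraries labelled SRMS shRNA and 6, 14 and 12 in vector libraries (0.57, SE 0.19, limma adjusted p = 0.0260), and TRIM69, an interferon-induced microtubule-binding member, 17, 25 and 11 against 3, 17 and 9 (0.57, SE 0.18, adjusted p = 0.0183). The groups overlapped in both. TRIM72 misses the threshold without vector replicate 1 or 3 or SRMS shRNA replicate 1 or 2 (adjusted p of 0.0679 to 0.0990), and TRIM69 without vector replicate 1 or 3 or SRMS shRNA replicate 2 (0.0625 to 0.0718). Of the genes not past the threshold, TRIM38 passes without SRMS shRNA replicate 1 (-0.27, adjusted p = 0.00505) or with pairing by number (adjusted p = 0.00873) and TRIM4 without vector replicate 2 (-0.25, adjusted p = 0.0440). TRIM6 and the readthrough TRIM6-TRIM34 share exons and did not pass.

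**Figure D3:**
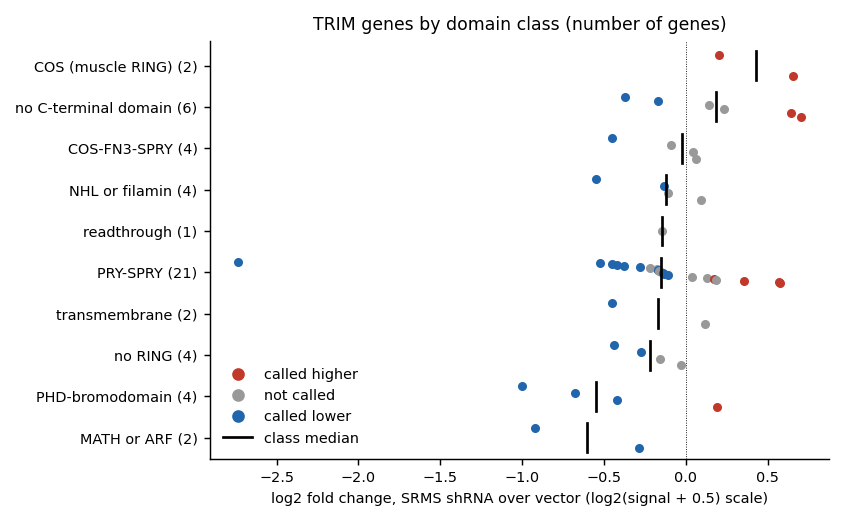
Log2 fold change of the 50 TRIM genes grouped by the domain that follows the coiled coil, SRMS shRNA over vector; each point is 1 gene, coloured by its call, and the bar is the class median. The 4 PHD-bromodomain genes have a median of -0.55 and the 21 PRY-SPRY genes, TRIM58 included, a median of -0.15.

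Levels between genes were compared as mean signal per kilobase of transcript. TRIM28 stood at the top with 479 in libraries labelled SRMS shRNA and 420 in vector libraries, followed by TRIM27 (46.5 and 50.3), TRIM55 (44.0 and 38.2) and TRIM41 (40.1 and 31.3). TRIM26, TRIM8, TRIM11 and TRIM21 came next at 15.6 to 23.5. TRIM58 was at 0.102 and 1.53, so in vector libraries it was close to TRIM56 (1.61), TRIM59 (1.42) and TRIM46 (1.24), and in libraries labelled SRMS shRNA it was close to TRIM2 (0.103) and TRIM17 (0.109). At the low end TRIM31 had 0.0625 and 0.0114 and TRIM67 0.0147 and 0.00874.

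**Figure D4:**
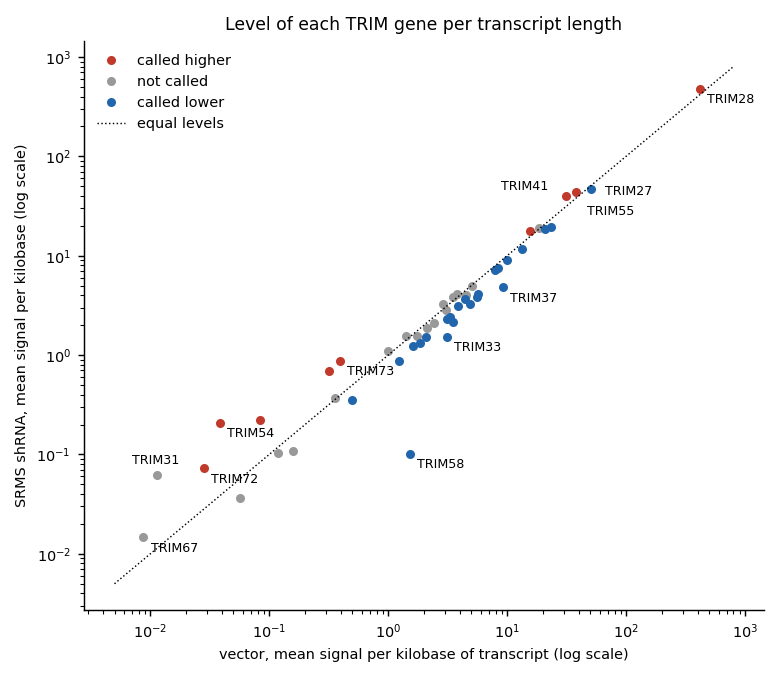
Mean signal per kilobase of transcript of each TRIM gene, SRMS shRNA libraries (vertical) against vector libraries (horizontal), both on log scales, with a dotted line of equal levels. TRIM58 lies farthest below the line, at 0.102 with SRMS shRNA and 1.53 with the vector, and TRIM28 has the highest level in both groups.

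Fold changes in these libraries fall with transcript length. With all genes in 5 equal groups by length, 8 of the 50 TRIM genes lay in the 2 shortest groups, 22 in the middle group and 9 and 11 in the longer ones. Median log2 fold changes of all genes in 5 equal groups by transcript length were 0.23, 0.09, -0.02, -0.12 and -0.23, at median lengths of 1260, 2146, 3055, 4352.5 and 7074.5 bases, and the median transcript was 3452.5 bases for TRIM genes against 3055 for all genes. Of the 11 TRIM genes in the longest group 8 were lower and 1 higher, with a median of -0.28, where 54.4% of all genes were lower and 9.59% higher. In the next longest group 4 of 9 TRIM genes were lower, against 42.1% of all genes, with medians of -0.09 and -0.12. In the 2 shortest groups together 2 of 8 TRIM genes were lower and 5 higher. Of all genes 6.76% were lower and 52.7% higher in the shortest group, and 17.6% and 34.6% in the next. Of the 22 in the middle group, which holds TRIM58, 9 were lower and 3 higher, where 30.0% of all genes were lower and 22.9% higher. The medians there were -0.15 for the TRIM genes and -0.02 for all genes. With replicates paired and the dependence on length and GC content taken out, 18 TRIM genes were lower and 10 higher (all genes 32.7% and 28.7%), their median was 0.07 below that of all genes, and TRIM58 was at -2.71. TRIM44, with a transcript of 12964 bases, was then at -0.01 (adjusted p = 0.877), TRIM8 at -0.03 (adjusted p = 0.325), TRIM66 at -0.20 (adjusted p = 0.121), TRIM23 at -0.12 (adjusted p = 0.131) and TRIM21 at 0.04 (adjusted p = 0.393). TRIM33 (-0.71) and TRIM24 (-0.41) then had smaller changes than in the main fit and stayed past the threshold.

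**Figure D5:**
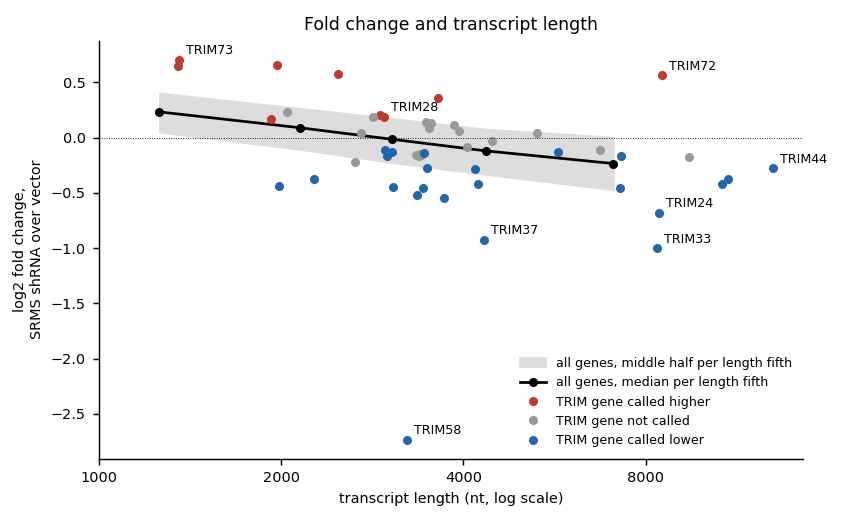
Log2 fold change of each TRIM gene, SRMS shRNA over vector, against transcript length on a log axis; the black line joins the medians of all 14029 genes in 5 equal groups by length and the grey band spans the middle 50 percent of genes. The line runs between 0.23 and -0.23, and TRIM58 lies far below it at -2.73.

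The hexamer CGTGTC was searched on the sense strand of 1 transcript per gene, because an earlier scan of these same fold changes had picked it; the share of genes holding it is therefore a description. It lay in the coding sequence or 3′ UTR of 20 of 50 TRIM genes (40.0%) and of 25.5% of all genes, and in the 3′ UTR of 8 TRIM genes (16%) and 9.54% of all genes. Of these 8 TRIM genes 4 were lower and 1 higher, and 3 did not pass (TRIM2, TRIM14 and TRIM39, whose sites are not shown). Of all genes with it in the 3′ UTR 46.2% were lower and 16.5% higher. Those genes have a median transcript of 4819 bases, against 3055 for all genes. In the 2 longest of the 5 length groups 42.1% and 54.4% of all genes were lower, with or without the hexamer. TRIM33 and TRIM37, the genes with the lowest values after TRIM58, each hold 1 copy of it in the 3′ UTR. Shown with them are the 3′ UTR sites of the lower genes TRIM46 and TRIM56 and of the higher gene TRIM72, in 26 bases of the transcript 5′ to 3′ with the hexamer in capitals, from GENCODE release 29.
TRIM33: acttgagactCGTGTCacttgataaa
TRIM37: ttcactcttcCGTGTCtgatgtcttg
TRIM46: ctccttctccCGTGTCtgtcttccca
TRIM56: agattgttgcCGTGTCtgtgtagaaa
TRIM72 first: ggagtctcacCGTGTCacccaggtta
TRIM72 second: gccatcagacCGTGTCgcaagtctgc
These windows lie at chr1:114397270-114397295 and chr17:58998278-58998303 on the minus strand, and at chr1:155184311-155184336, chr7:101092928-101092953, chr16:31227973-31227998 and chr16:31229218-31229243 on the plus strand of GRCh38.

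The 20 TRIM genes with the hexamer there had 9 lower and 3 higher and a median log2 fold change of -0.11, and the 30 without it had 14 lower and 6 higher and a median of -0.16. Over all genes the medians were -0.08 with it and 0.03 without it, where the genes with it also have the longer transcripts (median 4065.5 against 2769 bases). TRIM58 has no copy in its 3225-base transcript, and this says only that these letters are not in that sequence.

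Genes around the family moved in their own ways. Of 14 family members under other names 7 were measured, 2 lower and 3 higher (all genes 30.2% lower and 26.6% higher). RFPL3, a RET-finger-protein-like gene, averaged 2.19 ± 0.209 in libraries labelled SRMS shRNA and 0.628 ± 0.0897 in vector libraries (SD, n = 3 each; 1.25, limma adjusted p = 1.38e-05), and MID1, the microtubule-bound ligase mutated in Opitz syndrome, 7.66 ± 0.867 and 11.2 ± 0.997 (-0.53, adjusted p = 0.00125). PML, the organiser of nuclear bodies, averaged 31.4 ± 1.26 and 35.9 ± 1.37 (-0.19, adjusted p = 0.00952), and median scaling ended that call (-0.03, adjusted p = 0.622).

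Of 6 ubiquitin genes and E1 activating enzymes 1 was lower and 4 higher, with a median log2 fold change of 0.29 (all genes 30.2% lower and 26.6% higher). UBB, a polyubiquitin gene, averaged 2026 ± 22.9 in libraries labelled SRMS shRNA and 1656 ± 30.0 in vector libraries (0.29; SD, n = 3 each). UBA6, the alternative E1 enzyme, was the lower one at 29.2 ± 1.38 and 40.3 ± 1.27 (-0.46, limma adjusted p = 4.44e-05), and UBA1, the main E1 enzyme, did not pass (0.00, adjusted p = 0.940). Of 11 E2 enzymes that serve TRIM ligases 5 were higher and 6 did not pass, against 26.6% of all genes called higher; among the higher was UBE2E3 at 69.7 ± 1.95 and 57.7 ± 3.88 (0.27, adjusted p = 0.00124). Pairing by number changed 4 of the 6 calls: UBE2V2 (-0.15, adjusted p = 0.00038), UBE2D4 (-0.29, adjusted p = 0.0093) and UBE2W (-0.42, adjusted p = 0.022) then passed as lower and UBE2N (0.11, adjusted p = 0.00059) as higher.

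For the dynein chains, substrates of TRIM58 in erythroid cells, 4 of 10 genes were lower and 4 higher at the RNA level, against 30.2% and 26.6% of all genes. With pairing by number DYNC1I2, an intermediate chain, also passed as lower (-0.07, limma adjusted p = 0.0414), but under median scaling it passed as higher (0.09, adjusted p = 0.0384). DYNLT1, a light chain, averaged 82.5 ± 2.40 in libraries labelled SRMS shRNA and 53.3 ± 0.827 in vector libraries (SD, n = 3 each; 0.62, limma adjusted p = 1.24e-06), and DYNLL2, another light chain, changed by -0.31. Of 10 genes of the p53 axis on which TRIM ligases act, 6 were lower and 2 higher (all genes 30.2% and 26.6%): MDM2, the main p53 ligase, averaged 13 ± 1.38 and 21.0 ± 0.965 (-0.67, adjusted p = 6.65e-05). The RNF genes, another family of RING ligases, had 26 of 71 lower and 17 higher (60.6% called, near the 56.8% of all genes) with a median of -0.03, and their lowest, RNF4, a ligase of SUMO-modified proteins, averaged 6.20 ± 0.140 and 16.5 ± 0.244 (-1.35, adjusted p = 3.41e-07).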

How the data were processed

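The authors' deposited table holds a linear signal: read counts over each library's effective size, scaled to 1000000, although its name calls it log CPM. Counts recovered from it were whole, within 0.1, for at least 99.99% of values per library. Per the submitters' processing notes, FastQC, cutadapt, HISAT2, StringTie and edgeR were used on GRCh38; their settings (strand, filter on low genes) were not given in the sources used here. In the labels' protocols the libraries are stranded, poly(A)-selected and read as paired ends. Of 14042 rows, 13 for Y copies of pseudoautosomal genes were left out, and all 14029 others matched GENCODE release 29, which gave coordinates and 1 coding transcript per gene.

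The members, gene lists, classes and named genes were chosen with earlier results of these data known. The rule named SRMS, TRIM58, its 6 relatives, up to 12 TRIM genes at each end among those past the threshold, the 4 with the highest and 3 with the lowest level per kilobase, the member with the smallest adjusted p in each class, the 3 TRIM genes with the largest adjusted p, readthrough symbols, and in each other list the genes of lowest adjusted p, at most 4. Other TRIM genes, the neighbours of TRIM58, UBA1 and further list members were named after their values were seen. The main test was limma 3.58.1 in R 4.3.3 with a mean-variance trend on log2(signal + 0.5), which understates changes of low genes, for SRMS shRNA minus vector over 6 libraries, with Benjamini-Hochberg adjustment over 14029 genes and a threshold of 0.05. Intervals are 95%. The test was checked on simulated data with 200 changed genes, balanced in direction and without a length trend. As 56.8% of genes were called here, that check bears on the code and not on the calls. Alternatives were other pseudocounts, scalings and a filter, array weights, no trend, a replicate block, fits without 1 library, and counts recovered from the signal in edgeR 4.0.16 and DESeq2 1.42.0.

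Deviations from group means correlated across genes for libraries of the same number (r = 0.309, 0.106 and 0.120), which met the limit of 0.1 for taking the numbers as pairs. The main fit has no block, and the blocked fit is an alternative; replicates 2 and 3 of opposite groups correlated about as well (0.114 and 0.113). Between replicates 2 and 3 the chi-square per gene was 1.65 for SRMS shRNA and 1.79 for the vector, above sampling noise, against 3.55 to 5.07 for pairs with replicate 1. Each library was kept, with a fit on the mean of replicates 2 and 3 as an alternative. Of the 50 TRIM genes 12 overlap another measured gene, TRIM37, TRIM32, TRIM13, TRIM66, TRIM23, TRIM25, TRIM14, TRIM59, TRIM72 and TRIM54 among them, and reads of overlapping genes may have been split.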

Additional observations from a re-analysis of the deposited data

How the results depend on the processing

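TRIM58 stayed past the threshold as lower in all 19 alternative fits, between -3.95 and -2.17 on the log2 scale. Of the 32 TRIM calls, 17 kept their direction and call in every fit that gave them a value (12 lower, 5 higher). With the replicate block 34 TRIM genes passed, 25 lower and 9 higher, gaining TRIM38 and TRIM16, and over all genes 65.3% passed. No other TRIM call changed under the block, and outside the family it changed those of SRMS, CBX5, DYNC1I2 and 4 E2 genes among the listed genes other than RNF. Leaving out 1 library gave 25 to 30 TRIM calls (18 to 22 lower, 6 to 9 higher), 6895 to 8324 over all genes (3697 to 4433 lower, 3195 to 3891 higher), 96 to 120 among the 177 genes of all lists, 49 of which are TRIM genes of the class lists (54 to 71 lower, 41 to 49 higher), TRIM medians of -0.143 to -0.118 and TRIM58 values of -2.89 to -2.65. With columns scaled to a common median 2510 genes were lower and 6254 higher, TRIM genes 12 and 15, 35 of the 177 list genes lower, and the TRIM median was 0.015, against -0.056 with quantile scaling and -0.075 with the block and the length and GC trend removed. A filter on low means left 4 higher TRIM genes, and a change of at least 0.5 left 2394 genes (1405 lower, 989 higher), 11 TRIM genes (6 and 5) and 36 of the 177 list genes, TRIM genes included (20 and 16). Averaging replicates 2 and 3 left 6068 genes (3287 lower, 2781 higher) and 26 TRIM genes (18 and 8).

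Directions turned for TRIM6 (0.0054), TRIM6-TRIM34 (0.011), TRIM65 (0.019), TRIM25 (0.026), TRIM3 (0.027), TRIM27 (0.049), TRIM2 (0.051), TRIM36 (0.071) and TRIM14 (0.13) under median scaling, and for TRIM16 (0.0036), TRIM36 (0.072), TRIM14 (0.11), TRIM9 (-0.042) and TRIM28 (-0.042) under quantile scaling. With the block and the length and GC trend removed they turned for TRIM38 (0.11), TRIM25 (0.026), TRIM2 (0.15), TRIM36 (0.077), TRIM14 (0.060) and TRIM11 (-0.073). Over the fits without 1 library TRIM2 ran between -0.258 and 0.020 (above 0 without vector replicate 1), TRIM9 between -0.079 (without vector replicate 2) and 0.101, TRIM14 between -0.068 and 0.027, and TRIM67 between -0.0071 and 0.136 (both turned without SRMS shRNA replicate 1), and without replicate 1 of both groups directions turned for TRIM2 (0.064), TRIM14 (0.0061), TRIM67 (-0.0073), TRIM59 (-0.021) and TRIM31 (-0.019). The cause was not tested. Depth limits TRIM67, TRIM31, TRIM6-TRIM34, TRIM54 and OR6F1, which had at most 15 reads in any library. Of these only TRIM54 passed the threshold in the main fit, and the filter on low means gave it no value.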
